A study of Caenorhabditis elegans with 6 samples.

Results

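The numbered nhr genes encode nuclear hormone receptors of Caenorhabditis elegans, and their transcripts were examined here on ribosomes pulled down from the nervous system. Members were chosen by identifier, as the genes WBGene00003600 to WBGene00003720 that the deposited table lists. There were 22 such genes among the 5739 of the table, and all 22 carry an nhr symbol and are annotated as protein-coding. The rule used identifiers and no measured level, although the family was taken up with earlier results of these data known and the table itself had passed a filter of the authors.

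Nuclear hormone receptors are transcription factors that bind DNA through a pair of zinc fingers and carry a domain that can hold a small fat-soluble ligand. Nematodes have far more of them than insects or vertebrates, most of them derived from an ancestor like the vertebrate receptor HNF4. Characterised members control moulting, fat and propionate metabolism, vitamin B12 responses and the handling of foreign compounds, often in the intestine or hypodermis, and a smaller set acts in neurons. ALG-2 is one of the Argonaute proteins that carry miRNAs in worm somatic cells, and the experiment asked how the RNA on neuronal ribosomes differs when alg-2 is lost.

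The alg-2(ok304) group held 3 libraries from worms with the alg-2 deletion allele ok304, and the wild-type group held 3 libraries from worms without it. Both strains carried the ribosomal protein RPL-18 with an epitope tag, expressed from the pan-neuronal rgef-1 promoter as a single-copy insertion on chromosome IV. Each library came from a pooled population of synchronised L4 larvae, and RNA was taken from immunoprecipitated polysomes (ribosomes strung on messenger RNA) of whole-animal lysate. The methods describe a FLAG-tagged protein and FLAG beads, but the strain list gives the epitope as HA in the mutant and as FLAG in wild type. The columns used for alg-2(ok304) are headed in the table as a knockout of alg-1 and were assigned to this group by their strain number.

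The table holds fitted reads, meaning the level that the authors' model gave a group multiplied by a factor of each library, and not read counts. Within a group the ratio between 2 library columns was the same for every gene, to within 8.83e-09 of its value, so no spread between replicates, no error and no test can be computed. Every difference below is therefore a description of 2 group levels, each summed over 3 libraries. Ribosomal RNA genes, with the genes that overlap them or lie within 2 kb, took 87.2% of the fitted reads in alg-2(ok304) and 99.1% in wild type. Outside them the libraries held between 608184 and 1365320 fitted reads in alg-2(ok304) and between 108700 and 164986 in wild type. Levels are given in RPM, fitted reads per 1000000 fitted reads outside those genes, and outside them the depth of alg-2(ok304) was 6.32 times that of wild type. alg-2 itself stood at 11.1 fitted reads or 4.14 RPM in alg-2(ok304) and at 16.6 fitted reads or 39.0 RPM in wild type, a log2 difference of -3.10 in RPM that turned to 0.52 with all reads as the scale. A count over a whole gene does not check a partial deletion.

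Markers of cell types were read on the same scale. Of 12 neuronal markers 5 were listed, and rgef-1 and rab-3 were not among them, with a summed level of 22.4 RPM in alg-2(ok304) and 22.6 in wild type. These sums rest on 60.3 and 9.61 fitted reads, with egl-21 listed in alg-2(ok304) only. Of the 4 above 0 in both groups, unc-18 and snb-1 were higher and unc-13 and unc-104 lower in alg-2(ok304) in RPM. With all reads as the scale these 4 had log2 differences between 2.56 and 5.06. All 8 body wall muscle markers were listed, at 330 RPM in alg-2(ok304) and 1330 in wild type, and 6 of the 7 above 0 in both groups were lower in alg-2(ok304) in RPM, of which tnt-2 alone was also lower with all reads as the scale. All 6 hypodermal markers were listed, col-19 at 0 in both groups, with sums of 97.7 RPM in alg-2(ok304) and 728 in wild type. The cuticle collagen gene sqt-3 held 29.6 and 665 RPM of these, and without it the sums were 68.1 and 62.9 RPM. Of the other hypodermal markers, dpy-7, rol-6 and dpy-5 were higher in alg-2(ok304) in RPM. bli-1 was lower, at 8.56 RPM in alg-2(ok304) and 40.3 in wild type. Its log2 difference of -2.18 turned positive with all reads as the scale. Of 8 intestinal markers 6 were listed, at 254 RPM in alg-2(ok304) and 381 in wild type. asp-1 held 180 and 174 RPM of these, and without it the sums were 74.4 and 207 RPM. ges-1 and ifb-2 were listed in alg-2(ok304) only, at 77.6 and 9.14 fitted reads. cpr-1 was lower there, at 13.7 RPM against 38.3 in wild type. act-5 and mtl-2 were at least 4-fold lower in alg-2(ok304) in RPM. With all reads cpr-1 and act-5 turned to log2 differences of 2.24 and 1.35, and mtl-2 stayed lower, at -0.34. Of 6 germline markers 2 were listed, at 5.27 RPM in alg-2(ok304) and 9.61 in wild type. The share of these tissues in the nhr levels was not tested. In such bulk RNA, fewer cells of a type and less RNA per cell cannot be told apart.

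Most numbered nhr genes were absent from the list. Ensembl annotates 119 genes in the identifier range, 117 of them protein-coding, of which 22 were listed (18.5% of the 119) and 97 were not. Over the whole genome 5465 of 19985 protein-coding genes were listed, 27.3%. A gene that is not listed is not shown to be low, since the table was filtered by the authors. That filter, 1 CPM in at least 2 libraries, is not met by most rows in the 6 libraries used here: 1704 of the 5739 genes, and 7 of the 22 members, reach it in their fitted reads, and 953 genes are at 0 in both groups. Which libraries the filter was applied to is not given in the sources used here. Chromosome V, which holds the largest number of these receptors, had 7 of its 55 listed (12.7%, against 20.1% of all protein-coding genes there). Chromosome IV had 6 of 20 (30%, against 30.8%), chromosome I 4 of 14 (28.6%, against 35.9%), chromosome X 3 of 14 (21.4%, against 19.4%), chromosome II 2 of 10 (20%, against 27.1%) and chromosome III 0 of 6, against 35.6%. Listing thus varied between chromosomes for protein-coding genes in general. Listed nhr genes were also longer, with a median span of 4540 bp against 2784 bp for those not listed. Among all protein-coding genes these medians were 2413 bp for listed and 1917 bp for other genes.

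The row of nhr-104 held nearly all the fitted reads listed for the family, but almost the same reads were listed for a non-coding RNA inside the gene. nhr-104 (WBGene00003694; chromosome IV, 4784469 to 4788692 of WBcel235, minus strand) had 11857, 13915 and 26618 fitted reads in the alg-2(ok304) libraries, against 2299, 3211 and 3489 in the wild-type libraries. The sums, 52391 in alg-2(ok304) and 8999 in wild type, were 99.3% and 99.4% of the fitted reads of all 22 members. On the scale without ribosomal RNA the groups lay close together, at 19496 RPM in alg-2(ok304) and 21149 in wild type, a log2 difference of -0.12.

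**Figure D1:**
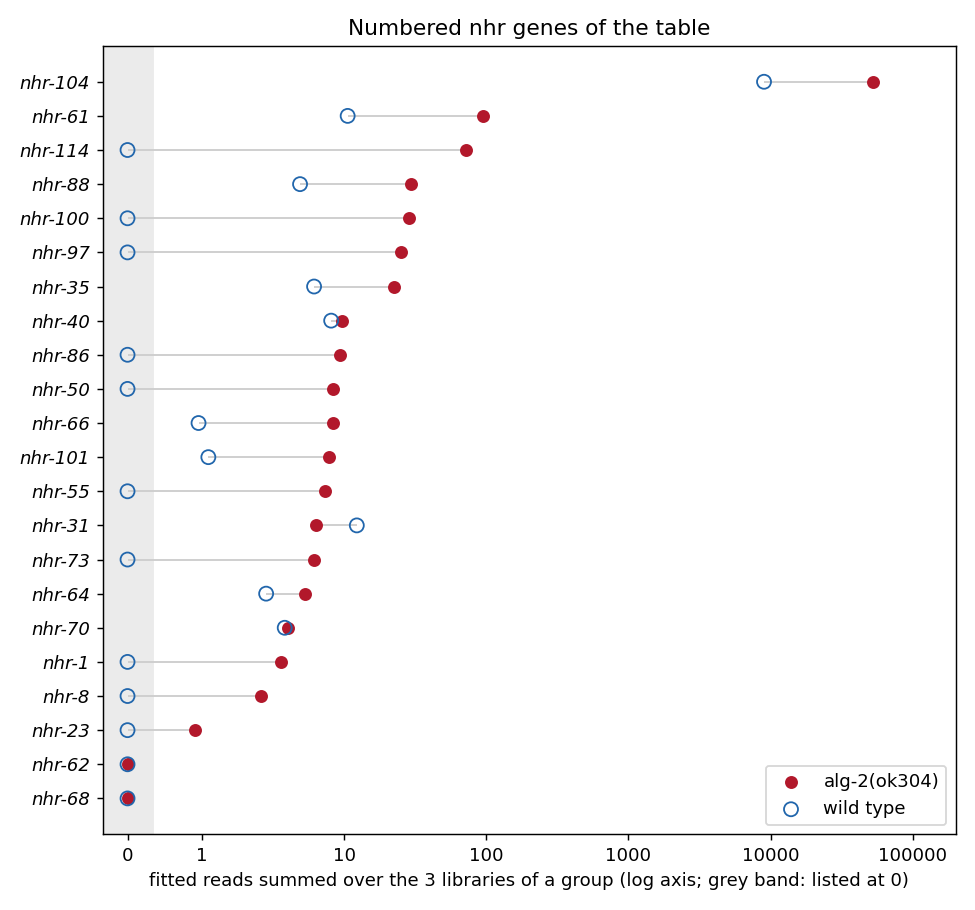
Fitted reads of the 22 numbered nhr genes of the table, summed over the 3 libraries of each group, on a log axis with genes listed at 0 in a grey band (filled red, alg-2(ok304); open blue, wild type). The points are sums of fitted values without error bars. The row of nhr-104, nearly all of which R11E3.16 matches, stands at 52391 and 8999 fitted reads, nhr-61 follows at 95.4 and 10.6, and 10 genes have reads in alg-2(ok304) only.

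R11E3.16 (WBGene00201848; chromosome IV, 4784835 to 4784986, plus strand) is a non-coding RNA of 152 bp on the strand opposite to nhr-104. It sits in an intron of 498 bp, from 4784654 to 4785151, between exons 9 and 10 of the nhr-104 transcript R11E3.5a.1, and no annotated exon of nhr-104 touches it. R11E3.16 had 52370 fitted reads in alg-2(ok304) and 8995 in wild type. nhr-104 exceeded it by only 20.9 fitted reads in alg-2(ok304) and 3.59 in wild type, and with that remainder alone its log2 difference was -0.11. The reads of R11E3.16 lie where nhr-104 has no annotated exon, so the row of nhr-104 cannot be read as its spliced message. Whether these reads came from R11E3.16 or from the intron of nhr-104 cannot be told apart in the table.

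**Figure D2:**
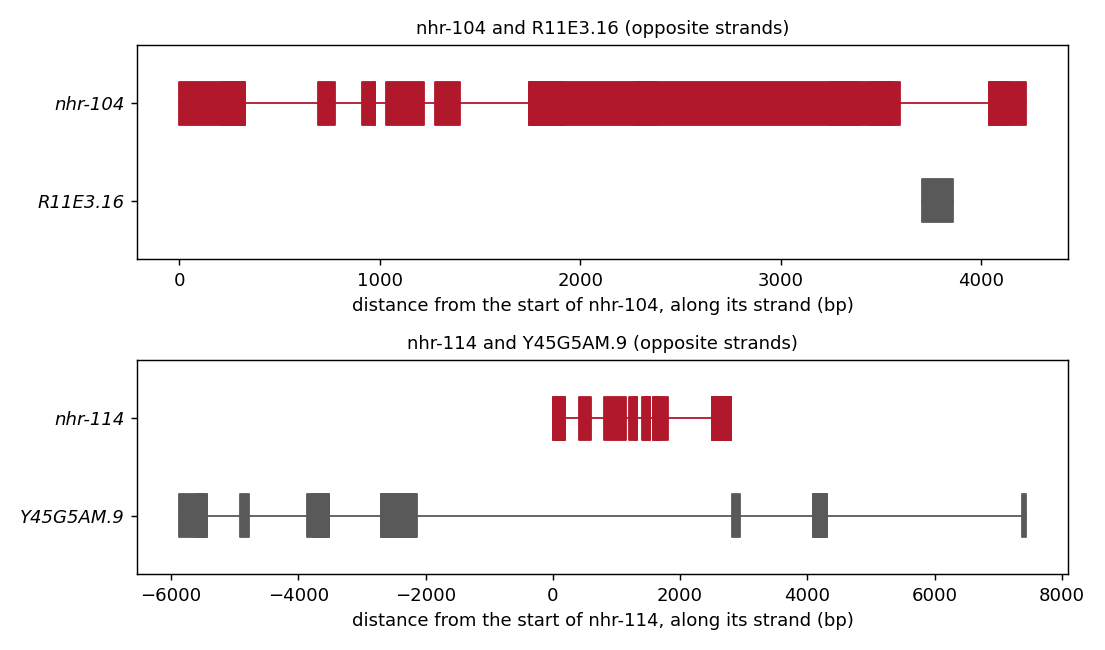
Exons (boxes) and gene spans (lines) of nhr-104 with R11E3.16, and of nhr-114 with Y45G5AM.9, drawn to scale by distance in bp from the start of the receptor gene along its own strand. Exons of all annotated transcripts are drawn over each other. R11E3.16 falls between annotated exons of nhr-104, and the whole of nhr-114 falls in an intron of Y45G5AM.9.

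The same arrangement, turned round, held for nhr-114. nhr-114 (WBGene00003704; chromosome V, 4187202 to 4190008, plus strand) is a receptor needed for normal growth and fertility on diets low in vitamin B12. Its 2807 bp lie wholly in an intron of 4940 bp of Y45G5AM.9, a protein-coding gene on the opposite strand. nhr-114 had 16.3, 19.1 and 36.5 fitted reads in the alg-2(ok304) libraries and was listed at 0 in the wild-type libraries. Y45G5AM.9 had 72.0 fitted reads in alg-2(ok304), where nhr-114 had 71.8, and 2.1 in wild type. In alg-2(ok304) the rows thus differed by less than 1 fitted read. No exon of Y45G5AM.9 lies in the span of nhr-114, so reads counted there are not from annotated exons of Y45G5AM.9. Whether they came from nhr-114 or from the intron of Y45G5AM.9 cannot be told apart without strand.

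Across the table, such pairs were compared in the same way. Among listed genes with at least 10 fitted reads in alg-2(ok304), 59 pairs were found in which the gene lay in another annotated gene without touching an exon of that host. The host was listed in 56 of them, and in all 56 it had at least as many fitted reads as the gene inside, in each group, within 1%. The pairs are not all separate cases, since some hosts, such as cox-6B and dhc-4, recur. F16A11.7 in ppfr-1 also enters once on each strand with the same reads. In 50 of these 56 pairs the genes were on opposite strands. The other 3 hosts, frpr-10, C25H3.11 and C09G1.4, have no row, although the genes inside them had reads (F57H12.5 in frpr-10 had 30.2 fitted reads in alg-2(ok304) and 123 in wild type). Counting over whole gene spans without regard to strand would give the order of the 56 pairs. With the gene spans used here, it would also give reads to these 3 hosts. The authors counted on an earlier annotation release, and whether that release held these 3 hosts with the same spans was not tested. How features and strands were set is not given in the sources used here. The nhr levels may thus include reads of introns and of genes inside them. Among the members, 15 overlap some other annotated gene, 5 overlap one that is listed, and 17 have no listed gene in their span.

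**Figure D3:**
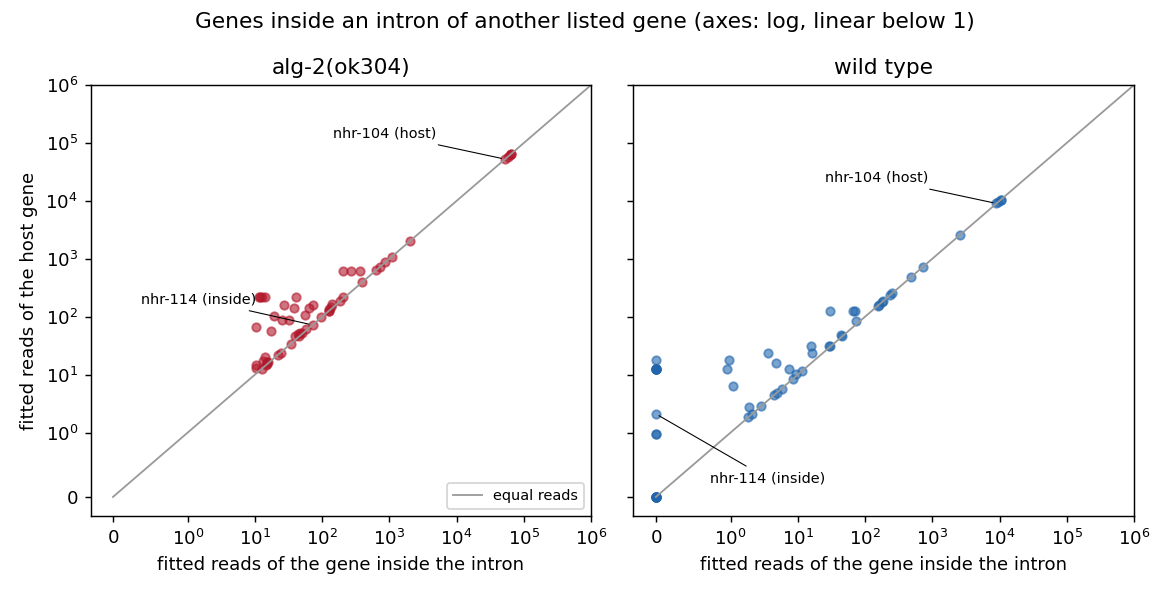
Fitted reads of the host gene against those of the gene inside its intron, for the 56 pairs with both genes listed, with alg-2(ok304) at the left and wild type at the right. Axes are logarithmic and linear below 1, and the line marks equal reads. All pairs lie on or above the line within 1%, with nhr-104 as host at 52391 fitted reads over 52370 in alg-2(ok304) and 8999 over 8995 in wild type, and nhr-114 as the gene inside.

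nhr-61 (WBGene00003651; chromosome II, 14816136 to 14818543) was the second member by reads. It had 21.6, 25.3 and 48.5 fitted reads in the alg-2(ok304) libraries and 2.71, 3.78 and 4.11 in the wild-type libraries. Per kb of span it had 39.6 fitted reads in alg-2(ok304) and 4.40 in wild type, against 25.6 and 0 for nhr-114 and 10.9 and 0 for nhr-100. Its log2 difference was 0.50, at 35.5 RPM in alg-2(ok304) and 24.9 in wild type. The neighbouring gene W01D2.1, which points towards it and shares the last 5 bp of the span, stood at 637 fitted reads in alg-2(ok304) and 60.8 in wild type. The part of W01D2.1 in the level of nhr-61 was not tested.

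Apart from nhr-104, nhr-61 and nhr-114, each member had at most 29.6 fitted reads in a group. Without nhr-104 the members summed to 353 fitted reads in alg-2(ok304) and 50.8 in wild type, or 131 and 119 RPM. Of the 22 members, 15 had under 10 fitted reads in alg-2(ok304) and 19 had under 10 in wild type. The median member had 8.09 fitted reads in alg-2(ok304) and 0 in wild type, and the median gene of the whole table had 8.37 and 0.947.

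Listing in 1 group was one-sided. Of the 22 members, 10 were above 0 in alg-2(ok304) only (45.5%, against 31.9% of all 5739 genes), and 0 were above 0 in wild type only, against 5.14% of all genes. A further 10 were above 0 in both groups (45.5%, against 46.3% of all genes), and nhr-62 and nhr-68 were at 0 in both (9.09%, against 16.6%). Reads in alg-2(ok304) only were thus common in the table as a whole, where the wild-type libraries were shallower outside ribosomal RNA and its neighbours, though deeper in total. Of the 10 members seen in alg-2(ok304) only, 7 had so few reads there that the same level would give at most 1.47 fitted reads at the wild-type depth, under a floor of 3 reads. For these, absence from wild type was not detectable as a difference at this depth on the scale used. The depth ratio of 6.32 became 3.29 with rRNA genes alone left out, 3.81 with the median ratio and 0.46 with all reads. A smaller ratio gives more expected reads in wild type, and the floor was not applied on those scales.

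The other 3 were nhr-114, nhr-100 and nhr-97. At the wild-type depth their alg-2(ok304) levels would have given 11.4, 4.54 and 3.99 fitted reads, where 0 were listed. nhr-100 (chromosome IV, 9728676 to 9731301) had 6.49, 7.62 and 14.6 fitted reads in the alg-2(ok304) libraries and 0 in wild type. nhr-97 (chromosome IV, 9757641 to 9764499) had 5.70, 6.69 and 12.8 in alg-2(ok304) and 0 in wild type. Neither of these genes has another listed gene in its span, which sets them apart from nhr-114. No fold is given against a group listed at 0.

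Metabolic receptors made up 12 names of the lists used, of which 6 were listed. Beside nhr-114, nhr-86, which responds to bacterial metabolites in the intestine, was listed in alg-2(ok304) only, at 9.31 fitted reads. nhr-8, which regulates cholesterol balance and resistance to toxins, was listed there only at 2.59, and the gene F33D4.6, which overlaps its end by 47 bp, had 50.5 fitted reads in alg-2(ok304) and 38.9 in wild type. nhr-66, a partner of the fat-metabolism receptor NHR-49, was above 0 in both groups, at 8.38 fitted reads in alg-2(ok304) and 0.947 in wild type, a log2 difference of 0.41. nhr-62, needed for longer life under dietary restriction, and nhr-68, which acts in the propionate shunt with nhr-10, were listed at 0 in both groups. nhr-10, nhr-13, nhr-28, nhr-49, nhr-69 and nhr-80 were not listed.

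Receptors of development and moulting gave 3 listed genes of 9. nhr-31, which controls vacuolar ATPase genes in the excretory cell, had 1.44, 1.69 and 3.23 fitted reads in the alg-2(ok304) libraries and 3.14, 4.39 and 4.77 in the wild-type libraries. It was the single member with the larger sum in wild type, 6.36 fitted reads in alg-2(ok304) and 12.3 in wild type, or 2.37 and 28.9 RPM, a log2 difference of -3.37 that turned to 0.15 with all reads as the scale. nhr-40, needed for body wall muscle development and movement, had 9.66 fitted reads in alg-2(ok304) and 8.12 in wild type, a log2 difference of -2.27 that turned to 1.29 on the same scale. nhr-23, the worm counterpart of the vertebrate ROR receptors and a regulator of moulting, had 0.894 fitted reads in alg-2(ok304) and 0 in wild type. Not listed were nhr-2, nhr-6, nhr-25, nhr-60, nhr-67 and nhr-85. The list of receptors with counterparts in other animals, 8 of them in the identifier range, had nhr-8 and nhr-23 listed, and nhr-48 and nhr-91 were further names not listed.

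The remaining members have no role given here. nhr-88 had 6.70, 7.86 and 15 fitted reads in the alg-2(ok304) libraries and 1.25, 1.75 and 1.90 in the wild-type libraries, a log2 difference of -0.06. nhr-35 had 22.6 fitted reads in alg-2(ok304) and 6.16 in wild type, a log2 difference of -0.75. For nhr-70 the sums were 4.05 in alg-2(ok304) and 3.83 in wild type, a log2 difference of -2.26 that turned to 1.06 with all reads as the scale. In RPM these 3 genes were therefore level or lower in alg-2(ok304), although their sums were larger there.

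nhr-64, a receptor related to HNF4, had 5.32 fitted reads in alg-2(ok304) and 2.83 in wild type, a log2 difference of -1.54. nhr-101 had 7.79 fitted reads in alg-2(ok304) and 1.11 in wild type, a log2 difference of 0.13. The DNA repair gene pms-2, which overlaps nhr-101 by 126 bp on the other strand, had 25.5 and 1.10 in the same order, so that in wild type both rows stood at about 1 fitted read. A larger overlap on that strand, 1860 bp or 89.7% of the nhr-101 span, is with the protein-coding gene H12C20.7, which has no row. nhr-50, nhr-55 and nhr-73 were listed in alg-2(ok304) only, at 8.43, 7.38 and 6.12 fitted reads, and nhr-1, which fell outside the naming rule, at 3.58.

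At the threshold of a 4-fold difference, with 0.5 reads added to each group on a common scale, 7 of the 22 members were higher in alg-2(ok304) (31.8%, against 23.7% of all genes) and 3 were lower (13.6%, against 16% of all genes). The 7 were nhr-50, nhr-55, nhr-73, nhr-86, nhr-97, nhr-100 and nhr-114, each of them listed at 0 in wild type, so that passing the threshold was set by the added 0.5 reads and no fold can be read from it. Of the 1363 genes higher over the table, 1240 were likewise at 0 in wild type. For 4 of the 7, nhr-50, nhr-55, nhr-73 and nhr-86, the alg-2(ok304) level would be under the floor of 3 reads at the wild-type depth. A difference was not detectable for them on the scale used. The 3 lower members were nhr-31, nhr-40 and nhr-70. Among the 10 members above 0 in both groups 0 were higher and these 3 lower, against 4.63% and 23.4% of the 2659 such genes. With 5 reads added in place of 0.5 the counts were 1 higher and 1 lower of 22 members, against 2.74% and 9.22% of all genes. When at least 10 fitted reads were required they were 3 and 1 of 8 members, against 30.8% and 19.2% of 2885 genes, and with all reads as the scale 15 and 0 of 22 members, against 60.7% and 4.43% of all genes. Over the 20 members above 0 in at least 1 group the median log2 difference was 0.64, against 0.65 over the 4786 such genes of the table. Over the 10 members above 0 in both groups it was -0.43, against -0.68 over 2659 genes. On these summaries the family stood near the table as a whole.

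**Figure D4:**
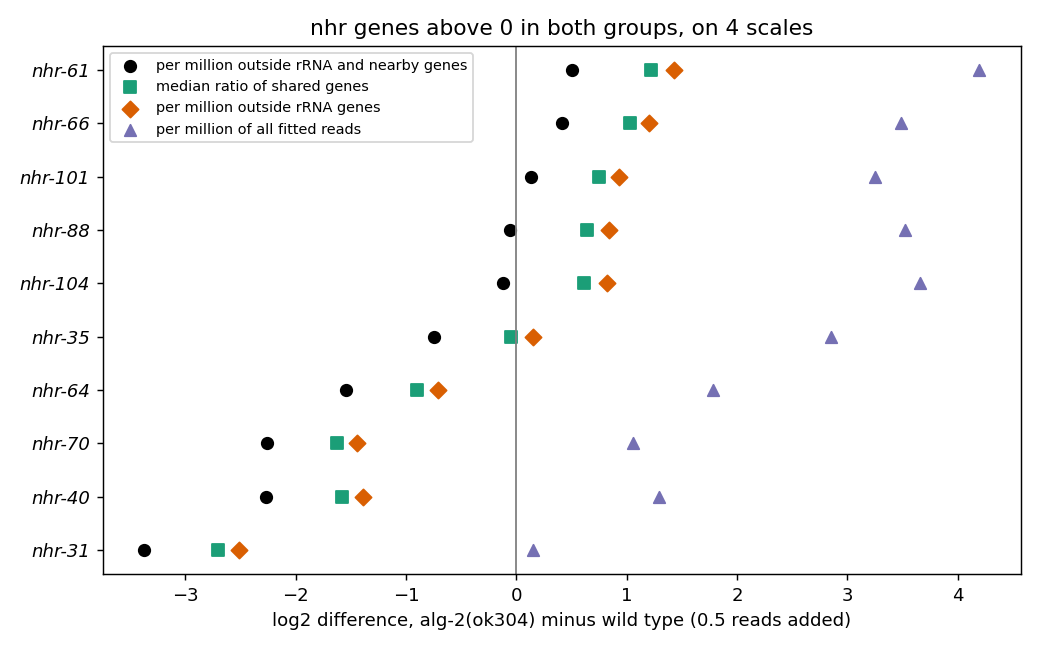
Log2 difference (alg-2(ok304) minus wild type, 0.5 reads added) of the 10 numbered nhr genes above 0 in both groups, on 4 scales between the groups. The vertical line marks no difference, and points carry no error. With reads outside ribosomal RNA and nearby genes as the scale 3 genes are higher and 7 lower in alg-2(ok304), and with all reads all 10 are higher.

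The direction for a member above 0 in both groups depended on the scale. On the scale used here 3 of these 10 members were higher and 7 lower in alg-2(ok304). With the median ratio of the 2659 shared genes as the scale 5 were higher and 5 lower, with the ribosomal RNA genes alone left out 6 were higher and 4 lower, and with all reads 10 were higher and 0 lower. nhr-31 was the lowest of them on each of the 4 scales and nhr-61 the highest. A change of scale moves every member by the same amount, apart from the effect of the reads added to each group. The order was therefore bound to stay much the same, and its stability is no separate evidence for it.

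nhr genes numbered outside the range and other parts of the receptor pathway were read from the same table. Of 152 such nhr genes 11 were listed, against 27.3% of all protein-coding genes. Of the 11, 5 were above 0 in alg-2(ok304) only, 2 in wild type only, 2 in both and 2 in neither. The shares of all 5739 genes were 31.9%, 5.14%, 46.3% and 16.6% in the same order. nhr-234 had 0 fitted reads in alg-2(ok304) and 31.2 in wild type, where no member of the identifier range was listed in wild type only. nhr-27 had 142 fitted reads in alg-2(ok304) and 12.4 in wild type, and its span holds the listed genes abf-5, abf-6, alh-13, gei-3 and pgp-14 in whole or in part. Of 5 receptors known by other names unc-55 alone was listed, at 0 in both groups, and daf-12, fax-1, odr-7 and sex-1 were not.

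Of 5 genes for making steroid ligands emb-8 was listed, at 12.7 fitted reads in alg-2(ok304) and 0.980 in wild type. Among 4 coregulators 3 were listed. The corepressor gene din-1 had 350 fitted reads in alg-2(ok304) and 94.6 in wild type, a log2 difference of -0.77, and the acetyltransferase gene cbp-1 had 30.9 and 5.74 in the same order, a log2 difference of -0.22. The Mediator subunit gene mdt-15 was listed in alg-2(ok304) only, at 16.3 fitted reads, and R12B2.8 overlaps its end. That level would give 2.58 reads at the wild-type depth on the scale used, under the floor of 3. With all reads as the scale din-1 and cbp-1 turned to 2.99 and 3.38.

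Among 6 target genes of these receptors 4 were listed. The stearoyl-CoA desaturase gene fat-6, a target of NHR-49 and NHR-80, had 44.7 fitted reads in alg-2(ok304) and 1.08 in wild type. Its log2 difference was 2.51, and 5.75 with all reads as the scale. The acyl-CoA synthetase gene acs-2, another target of NHR-49, had 3.92 in alg-2(ok304) and 4.79 in wild type, a log2 difference of -2.61 that turned to 0.74 with all reads as the scale. Both genes of the propionate shunt stayed closer, with acdh-1 at 233 fitted reads in alg-2(ok304) and 44.6 in wild type and a log2 difference of -0.27, and hphd-1 at 60.3 and 11.8 and a log2 difference of -0.30, which turned to 3.48 and 3.39 on that scale. Thus, in RPM, 1 of the 4 listed targets was at least 4-fold higher and 1 at least 4-fold lower in alg-2(ok304), against 23.7% and 16% of all genes. Both calls rest on few fitted reads in wild type. The receptors NHR-49, NHR-80 and NHR-10 had no row to set beside the targets.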

How the data were processed

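Per the labels and methods, the authors aligned cutadapt-trimmed reads (2.10) to the WBcel235 assembly using HISAT2, assigned them to genes of Ensembl release 96 by featureCounts and compared the groups in edgeR. The submitters' processing notes give HISAT2 2.2.0, Subread 2.0.0 and edgeR 3.11. The table is described as limited to genes at 1 CPM or more in at least 2 libraries, which 1704 of its 5739 genes meet in the fitted reads of these 6 libraries. The strand setting and feature type of the counting are not given in the sources used here. The deposited library columns hold fitted reads of that model. The deposited average column is on a log2 scale (log2 CPM), and is quoted for single genes as the authors' value. The p-value and FDR columns the authors deposited hold their own comparison and were not used.

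Within each group the fitted reads of its 3 libraries were added up and given as RPM outside 6 rRNA genes and 23 genes near them. Log2 differences used a pseudocount of 0.5 and a 4-fold threshold. The planned edgeR test was not run, since fitted values are no counts. Gene symbols, exons and coordinates (WBcel235) were taken from Ensembl 115, which annotates 5733 of the 5739 identifiers. Levels per kb used gene spans. The named members were those of lists of conserved, metabolic and developmental receptors and up to 12 others per group by reads. The family and the lists were chosen with earlier results of these data known, and the members within the family by identifier alone. Functions were checked on simulated data without noise, made from the wild-type levels and read on the scale of the median ratio. That check did not cover genes absent from a group or the pseudocount of 0.5. Python 3.11.15, numpy 2.4.6, pandas 2.3.3 and matplotlib 3.10.9 were used. Depth behind single values is unknown, and no interval is given. Protein and promoter sequences were not used here.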

Additional observations from a re-analysis of the deposited data

Results flagged for a closer look

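nhr-23, the regulator of moulting, stood out in the column of average log2 CPM, which enters no comparison above. Its average there was -0.73, above the median of -1.89 over all 5739 genes, although it had 0.894 fitted reads in alg-2(ok304) and 0 in wild type. nhr-61, with 95.4 fitted reads in alg-2(ok304), had an average of -0.51. The 953 genes at 0 in both groups likewise had averages that differed, between -3.96 and 1.77, among them nhr-62 at -3.09 and nhr-68 at -2.36. Which libraries entered the authors' average is not given in the sources used here, and no control samples were there to set it against.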

How the results depend on the processing

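With all reads as the scale, 15 members were at least 4-fold higher in alg-2(ok304) and 0 at least 4-fold lower (60.7% and 4.43% of all genes), the median log2 difference of the members was 3.53 (3.27 over all genes, against 0.65 on the scale used), and nhr-31, nhr-40 and nhr-70 turned to 0.15, 1.29 and 1.06. With rRNA genes alone left out, 8 were higher and 1 lower (29.9% and 11.9% of all genes) and the median was 1.32 (1.17 over all genes). With the median ratio of shared genes, 8 were higher and 1 lower (28.5% and 12.7% of all genes) and the median was 1.13 (1.08 over all genes). A pseudocount of 5 left 1 higher and 1 lower (2.74% and 9.22% of all genes), with a median of 0.22, and a pseudocount of 0.1 gave a median of 1.35. A minimum of 10 fitted reads in the higher group left 3 higher and 1 lower of 8 members (30.8% and 19.2% of 2885 genes), with a median of 0.22. Leaving out members with a listed gene in their span, chosen after seeing the data, gave a median of 0.78. Keeping the 10 members above 0 in both groups, also chosen after seeing the data, left 0 higher and 3 lower (4.63% and 23.4% of 2659 genes), with a median of -0.43. At 5 or more fitted reads, 11 members were listed in alg-2(ok304) only, 0 in wild type only, 5 in both groups and 6 in neither. The shares of all genes at this cutoff were not computed, so these counts cannot be set against the table as a whole.

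No paired analysis was possible because the library columns are fitted values in a fixed ratio within a group. Leaving out a library was not run for the same reason, as it would give the same levels in RPM. Members under 10 fitted reads are limited by depth, mostly in wild type.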
